A study of Mus musculus with 12 samples.

Results

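Carbonic anhydrases are zinc enzymes that interconvert carbon dioxide and water with bicarbonate and a proton. The 6 genes described here, Car1, Car2, Car3, Car5a, Car8 and Car14, are 6 of the 16 carbonic anhydrase genes in the count tables, which hold 24062 genes in all. They were selected on a measured value, the difference between diets in these same read counts. Their differences between diets are therefore given as descriptions with no p-value of their own, and how many of them passed the threshold used for all genes is a count that the choice itself shaped.

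The study fed female C57BL/6J (B6) mice BIBB-515, a small-molecule inhibitor of lanosterol synthase, an enzyme of cholesterol synthesis, and measured liver RNA by sequencing. The control diet group had 6 sequenced mice (replicates 1 to 6) and the BIBB-515 diet group had 6 (replicates 6 to 11), out of 11 mice per group in the study. Mice arrived at 6 weeks of age, acclimated for 2 weeks and all ate the control diet for the last 3 days before the start. They were then randomized to the control diet or to the same diet with BIBB-515 at 55 mg/kg body weight for 10 days. Only females of 1 inbred strain, 1 dose and 1 time were measured, and no allele or transgene differed between the groups. The labels give neither a cage nor a batch for single mice, and mice were caged in small groups.

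In liver, the cytosolic enzymes (Car1, Car2 and Car3) and the mitochondrial enzyme Car5a sit inside the cell, while Car14 is anchored in the plasma membrane with its active site facing outward. Car5a is known to supply bicarbonate to pyruvate carboxylase and carbamoyl phosphate synthetase, the entry enzymes of gluconeogenesis and of the urea cycle. Car3 is a low-activity enzyme abundant in skeletal muscle, fat and rodent hepatocytes. Car8 is a carbonic anhydrase-related protein without hydratase activity that binds the inositol trisphosphate receptor Itpr1. These genes are unrelated to the nuclear receptor CAR, whose gene is Nr1i3.

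The active-site stretch of the coding sequence is shown for the 5 catalytic members because it carries the residues that hold the zinc and lets their likeness be seen. Zinc is held by 3 histidines, and the capitals mark the 3 codons that aligned with those of Car2, in coding sequence from the GENCODE M21 transcripts (GRCm38), written 5′ to 3′ on the coding strand.
Car1: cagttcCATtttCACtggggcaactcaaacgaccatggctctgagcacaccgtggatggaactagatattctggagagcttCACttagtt
Car2: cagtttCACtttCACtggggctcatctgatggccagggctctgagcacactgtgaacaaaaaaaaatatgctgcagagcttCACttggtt
Car3: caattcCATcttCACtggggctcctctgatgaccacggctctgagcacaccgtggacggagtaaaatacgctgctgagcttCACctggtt
Car5a: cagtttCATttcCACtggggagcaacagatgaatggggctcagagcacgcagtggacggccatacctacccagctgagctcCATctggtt
Car14: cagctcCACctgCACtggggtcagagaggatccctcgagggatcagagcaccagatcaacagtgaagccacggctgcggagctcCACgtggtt
All 3 codons encoded histidine in these 5 genes. The encoded proteins had 260 residues for Car2 and Car3, 261 for Car1, 299 for Car5a and 337 for Car14. Identity to Car3 over aligned residues was 56.9% for Car2, 56.0% for Car1, 45.8% for Car5a and 36.9% for Car14.

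Car1, Car3 and Car2 lie next to each other on mouse chromosome 3 (mm10). Car1 spanned chr3:14766214-14808365 on the minus strand, Car3 chr3:14863538-14872373 on the plus strand and Car2 chr3:14886426-14900770 on the plus strand. The gap was 55.2 kb between Car1 and Car3 and 14.1 kb between Car3 and Car2. Within 100 kb of Car3, RefSeq also places the pseudogene Gm16399 inside the Car1 span and the long non-coding RNA Gm41999, whose span runs into the first bases of Car3. Neither has a row in the tables. The long non-coding RNA A930001A20Rik (chr3:14971201-15002727) begins within that distance of the end of Car3 and had at most 2 reads in any mouse. Car14 lies elsewhere on the same chromosome (chr3:95897800-95904639, minus strand), Car5a on chromosome 8 (chr8:121916138-121944912, minus strand) and Car8 on chromosome 4 (chr4:8141493-8239041, minus strand).

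Each mouse had between 22764819 and 31058370 reads assigned to genes. Values are counts per 1000000 assigned reads (CPM) scaled by the trimmed mean of M-values (TMM), and log2 fold changes are BIBB-515 diet over control diet with their standard error (SE) from edgeR. All 6 genes passed the filter of 1 CPM in at least 2 mice, as did 12481 genes in all. In liver of mice fed BIBB-515, Car3 and Car1 were higher, Car5a was slightly higher, Car14 was lower, and Car2 and Car8 differed little. A false discovery rate (FDR) under 0.05 was reached by 13.7% of all tested genes, 7.18% higher and 6.48% lower, and by 4 of these 6 genes, 3 higher and 1 lower. The 6 genes had a median log2 fold change of 0.25, against -0.01 over all tested genes. Since the diet difference entered the choice of the genes, these counts describe them and carry no further reading. The same holds for the absence of overlap between diets, which 4.35% of all tested genes showed with higher and 2.72% with lower values under BIBB-515, and which 2 of the 6 genes (Car1 and Car3) showed with higher and 1 (Car14) with lower values.

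**Figure D1:**
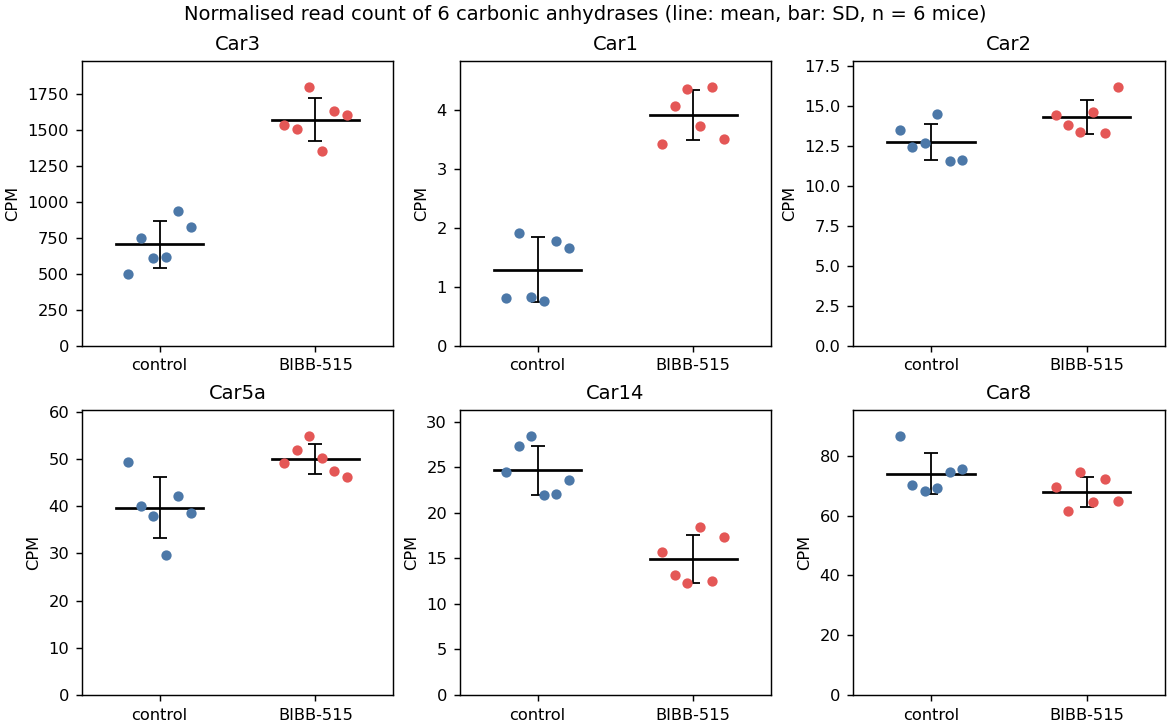
Normalised read count (CPM, linear axes from 0) of each of the 6 carbonic anhydrases, with 1 point per mouse, the mean as a line and the SD as a bar (n = 6 per diet). The points of the diets do not overlap for Car3, Car1 and Car14 and overlap for Car2, Car5a and Car8.

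Car3, the most abundant member, had a lowest, median and highest value of 496, 682 and 940 CPM on the control diet and of 1354, 1571 and 1797 CPM on the BIBB-515 diet. Every treated mouse was above every control mouse. The means were 705 ± 163 CPM and 1571 ± 148 CPM (SD, n = 6 each), a 2.23-fold ratio and a log2 fold change of 1.16 (SE 0.14). The coefficient of variation between mice was 23.1% on the control diet and 9.39% on the BIBB-515 diet. Among control mice the lowest was mouse 1 and the highest mouse 5. Each value rested on at least 12819 reads, so counting error was small beside the spread between mice.

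Car1, a cytosolic isoform best known from red blood cells and colon, was the scarcest of the 6. Its lowest, median and highest values were 0.764, 1.24 and 1.92 CPM on the control diet, and 3.42, 3.90 and 4.38 CPM on the BIBB-515 diet. The diets did not overlap, with control mice 1, 3 and 4 below 1 CPM and control mice 2, 5 and 6 above it. The log2 fold change was 1.59 (SE 0.22), on 19 to 53 reads per control mouse and 86 to 131 reads per treated mouse. Of the 6 members it had the largest fold and also the largest standard error.

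Car2, the cytosolic isoform with the highest turnover, had a lowest, median and highest value of 11.5, 12.6 and 14.5 CPM on the control diet and of 13.3, 14.1 and 16.2 CPM on the BIBB-515 diet. The ranges overlapped, and 2 of 6 treated mice were above the highest control mouse. Its log2 fold change was 0.17 (SE 0.07). Thus the 3 neighbours on chromosome 3 had log2 fold changes of 1.59, 1.16 and 0.17 in the order Car1, Car3, Car2 along the chromosome.

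Car5a, the mitochondrial isoform of liver, had a lowest, median and highest value of 29.6, 39.4 and 49.4 CPM on the control diet and of 46.3, 49.7 and 54.9 CPM on the BIBB-515 diet. The ranges overlapped through control mouse 1, the highest of its group, and 3 of 6 treated mice were above it. The log2 fold change was 0.33 (SE 0.10), and the ratio of the means was 1.26.

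Car14, the membrane-bound isoform, had a lowest, median and highest value of 21.9, 24.1 and 28.4 CPM on the control diet and of 12.3, 14.4 and 18.5 CPM on the BIBB-515 diet. Every treated mouse was below every control mouse. The log2 fold change was -0.73 (SE 0.11), and the ratio of the means was 0.605.

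Car8, the member without hydratase activity, had a lowest, median and highest value of 68.1, 72.5 and 86.6 CPM on the control diet and of 61.7, 67.3 and 74.6 CPM on the BIBB-515 diet. The ranges overlapped, with 3 of 6 treated mice below the lowest control mouse. Its log2 fold change was -0.13 (SE 0.07). Itpr1, the calcium channel that Car8 binds, was not part of the choice. Its mean was 64.0 ± 10.9 CPM on the control diet and 55.2 ± 3.30 CPM on the BIBB-515 diet (SD, n = 6 each). The log2 fold change of -0.21 (SE 0.09) did not pass the threshold (edgeR quasi-likelihood test, FDR = 0.146). Control mouse 3 was the highest, at 83.9 CPM, and without it the log2 fold change was -0.11 (SE 0.07).

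**Figure D2:**
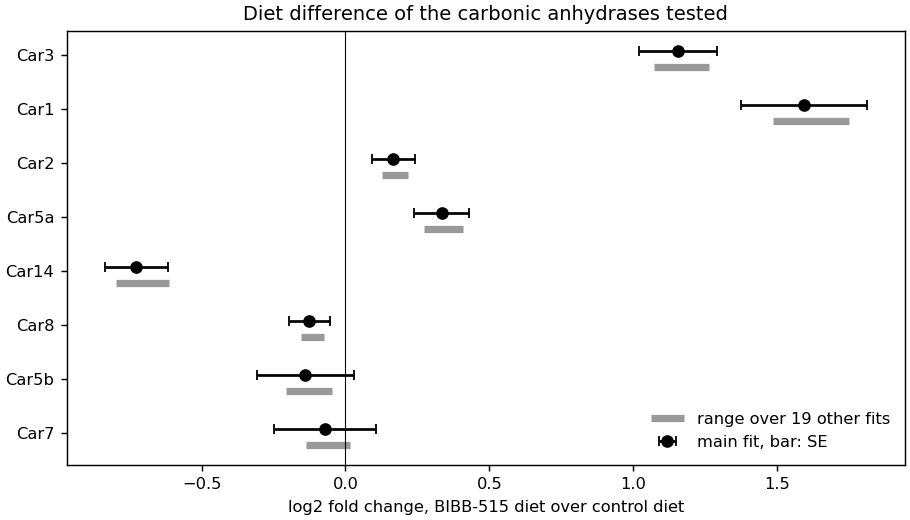
Log2 fold change of BIBB-515 diet over control diet for the 6 members and for the other 2 carbonic anhydrases that could be tested, with the SE as a bar and the range over 19 other fits in grey. Car3 and Car1 stayed above 1 and Car14 below -0.5 in every fit, while for Car7 the range crossed 0.

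Reads were assigned without regard to strand, and reads over exons of 2 genes were dropped, which touched Car14 and Car5a. The last exon of Car14 (413 bases) lies wholly over exon sequence of Aph1a, a gamma-secretase subunit on the opposite strand. The last exons of Car5a overlap BC048644, a gene on the opposite strand. In the companion tables that keep such reads for both genes, Car14 had 1.59 to 1.92 times and Car5a 1.62 to 1.81 times as many reads per mouse, whereas Car1 and Car8 were identical and Car2 and Car3 differed by at most 0.405%. In those tables the log2 fold change was -0.61 (SE 0.10) for Car14 and 0.37 (SE 0.08) for Car5a, and the diets did not overlap for either gene. The median of Car5a was then 66.1 CPM on the control diet and 84.5 CPM on the BIBB-515 diet. Aph1a itself had log2 fold changes of 0.10 (SE 0.09) without and -0.09 (SE 0.06) with the shared reads. BC048644 had -0.15 (SE 0.16) without and 0.36 (SE 0.06) with them, at a control median of 3.61 CPM without and 32.2 CPM with them. How many of the shared reads belong to which gene cannot be told apart. Words of 50 bases shared with transcripts of other genes on either strand made up 15.7% of those of Car14, 20.9% of Car5a and 13.4% of Car1, against 0.0789% of Car8 and 0.0% of Car2 and Car3.

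Levels can be compared between genes only per length. In RPKM, the TMM-scaled CPM divided by the length in kilobases given in the tables, the control medians were 446 for Car3, 31.6 for Car5a, 14.8 for Car14, 12.7 for Car8, 7.01 for Car2 and 0.996 for Car1. Only Car14 and Car8 overlapped among neighbours in that order. On the BIBB-515 diet the medians were 1027 for Car3, 39.9 for Car5a, 11.8 for Car8, 8.88 for Car14, 7.89 for Car2 and 3.12 for Car1. Car14 then overlapped both Car8 and Car2. Car3 ranked 137th on the control diet and 60th on the BIBB-515 diet among all genes by median RPKM. It made up 80.0% to 89.6% of the RPKM summed over the 16 carbonic anhydrase genes in control mice and 92.0% to 93.7% in treated mice. Car8 has 5722 bases in the tables and 3853 in GENCODE. With the same reads divided by GENCODE lengths its control median was 18.8 RPKM, which put it above Car14 in control mice too. That value can be too high, since the reads were counted over 5722 bases, of which the last exon alone has 4724. Since the last exons of Car14 and Car5a lost reads, their RPKM values are low estimates. With the shared reads kept, the control medians were 24.3 RPKM for Car14 and 53.1 RPKM for Car5a.

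**Figure D3:**
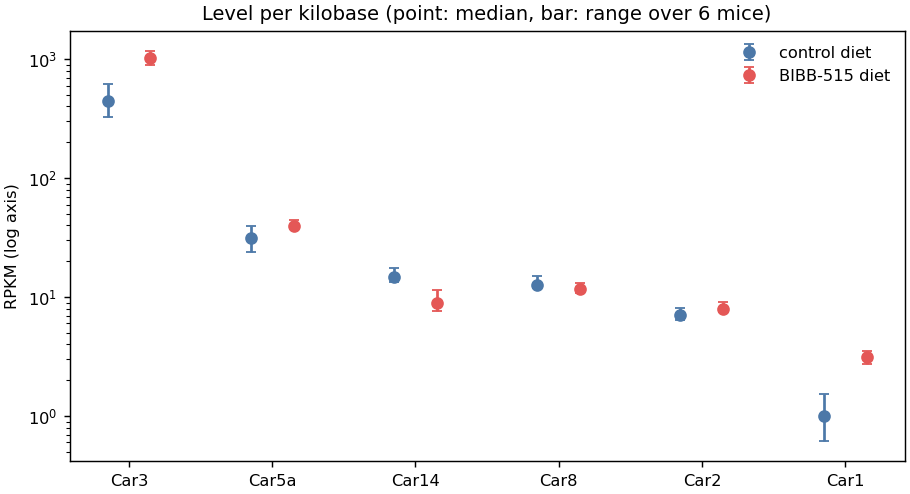
Level per kilobase (RPKM, log axis) of the 6 members by diet, with the median as a point and the range over 6 mice as a bar. Car3 sits above the other 5 genes in every mouse of both diets. The medians of Car14 and Car8 change places between the diets, but their ranges overlap in both. With GENCODE lengths, or with the shared reads kept, the order of Car14 and Car8 was the same in both diets.

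Exon use within a gene did not enter the choice of the genes and was tested on the exon counts. Of 115758 exons tested in all genes, 8 passed an FDR of 0.05 (0.00691%; edgeR diffSpliceDGE), and of 49 tested exons of these 6 genes none did. None of the 49 had an unadjusted p under 0.05 with edgeR, whereas limma diffSplice gave such a value for 1 exon, the last of Car2, which did not pass the FDR threshold. All 7 exons of Car3 had a log2 ratio of mean CPM between 1.11 and 1.25, all 7 of Car5a between 0.33 and 0.41, and all 11 of Car14 between -0.77 and -0.46. The exon counts keep reads shared with overlapping genes, so the last exons of Car14 and Car5a include reads of their opposite-strand neighbours. Those of Car8 lay between -0.18 and 0.05. The 8 tested exons of Car1 lay between 1.22 and 1.93 on few reads. Its exons 2 and 3 from the 5′ end are nested annotations with identical counts, so the same reads enter the 49 exons more than once. In Car2 the log2 ratio went from 0.52 in the first exon to 0.05 in the last, the exon with the most reads. Coverage of the first relative to the last exon, as the median log2 ratio per kilobase over 10301 genes, was -1.43 to -0.86 in control mice and -1.26 to -0.74 in treated mice. Its part in the Car2 pattern was not tested.

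**Figure D4:**
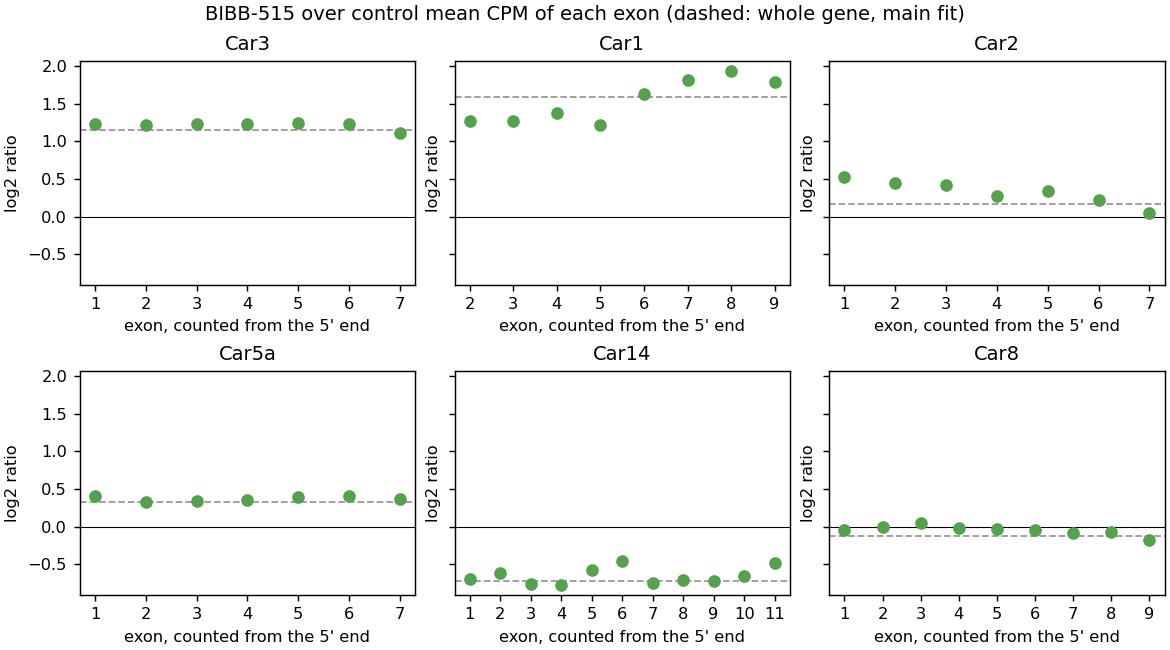
Log2 ratio of mean CPM, BIBB-515 over control diet, for each tested exon of the 6 members counted from the 5′ end, with the whole-gene value as a dashed line. Exons of Car3 and Car5a lie close to their gene's value. Those of Car14 run from -0.77 to -0.46, and those of Car2 slope from 0.52 to 0.05.

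The Car1 gene has a distal first exon, known from red cell precursors, and a proximal one. The distal exon (chr3:14808302-14808365) had 2 reads over all control mice and 1 read over all treated mice. The proximal exon (chr3:14778348-14778460) had 24 and 65 reads. A shorter annotated exon inside it (chr3:14778348-14778408) had the same count in every mouse, so no read lay only on the longer form. The Car1 reads of liver thus rarely touched the distal exon, but they cannot be assigned to the proximal form. Read numbers at both exons were small.

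Car1 and Car3 are also made by cells other than hepatocytes, so markers of such cells were read in the same tables. The 5 hepatocyte markers analysed (Alb, Apoa1, Ttr, Serpina1a and Fgb) summed to 136350 to 156760 CPM in control mice, and the liver label held. They summed to 102830 to 116820 CPM in treated mice, with 3 of 5 past FDR 0.05, all lower. Over all tested genes 13.7% reached that threshold, 7.18% higher and 6.48% lower. Of 8 skeletal muscle markers none passed the filter, and they summed to 0.735 to 1.86 CPM on the control diet and 0.516 to 1.18 CPM on the BIBB-515 diet. Of 8 fat cell markers 2 passed it. Fabp4 had 8.70 ± 1.82 and 9.25 ± 1.61 CPM on the control and BIBB-515 diets (SD, n = 6 each) and did not change past the threshold, while Adrb3 fell from 12.1 ± 3.17 to 5.03 ± 0.766 CPM. The defining markers Adipoq and Plin1 were near 0, Lep was at 0 in every mouse, and the list summed to 17.8 to 27.6 CPM on the control diet and 10.9 to 17.0 CPM on the BIBB-515 diet. The part of muscle or fat cells in the Car3 values was not tested. Of 8 red blood cell markers 1 passed the filter (Alas2, with no change past the threshold), and 4, all globins, were at 0 in every mouse in these tables, which drop reads that match several genes. The list summed to 9.83 to 15.8 CPM on the control diet and 9.39 to 13.7 CPM on the BIBB-515 diet. In the primary-alignment tables Hbb-bs had 58.8 to 156 CPM on the control diet and 41.9 to 89.1 CPM on the BIBB-515 diet. The part of red cells in the Car1 values was not tested. The 6 bile duct markers summed to 62.8 to 116 CPM and 92.1 to 155 CPM, with none of 5 tested past the threshold with edgeR (1 at an unadjusted p under 0.05, 1 called by DESeq2 and 0 by limma-voom). Most of the sum was Spp1, at 82.6 ± 17.0 CPM on the control diet and 112 ± 22.4 CPM on the BIBB-515 diet. By mean, Krt7 (1.58 and 1.41 CPM), Krt19 (2.28 and 1.61 CPM) and Cftr (0.239 and 0.197 CPM) were lower under BIBB-515. Epcam (2.62 and 2.76 CPM) and Sox9 (3.30 and 4.08 CPM) were higher. In bulk liver, fewer cells of a type and less RNA per cell cannot be told apart.

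Of the other 10 carbonic anhydrases, only Car5b and Car7 passed the filter, and neither changed past the threshold or had an unadjusted p under 0.05, and DESeq2 and limma-voom called neither. Car5b, the second mitochondrial isoform, had 3.47 ± 0.796 CPM on the control diet and 3.14 ± 0.629 CPM on the BIBB-515 diet (SD, n = 6 each), a log2 fold change of -0.14 (SE 0.17, edgeR FDR = 0.632). Car7, a cytosolic isoform, had 1.20 ± 0.198 and 1.15 ± 0.228 CPM, a log2 fold change of -0.07 (SE 0.18, edgeR FDR = 0.825). Car4 had no read in any mouse, which allows up to 0.14 CPM per mouse at a floor of 3 reads (counting error only). Car6, Car9, Car11, Car12 and Car13 stayed under 1 CPM in every mouse, and Car15 reached 1.21 CPM in 1 control mouse.

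Car10, a related protein of the brain without hydratase activity, was present almost only in 1 mouse. Control mouse 3 had 1200 reads (52.5 CPM), control mouse 4 had 24 reads (0.965 CPM), and each of the other 10 mice had 0 or 1 read. All exon-assigned reads lay on exons 4 to 9, with 27, 83, 82, 171, 286 and 882 reads in control mouse 3, and exons 1 to 3 had none. Car10 was the only gene in the tables that exceeded 2 CPM and 5 times the highest other mouse (plus 0.1 CPM) in control mouse 3, and no gene met that rule in any other mouse.

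**Figure D5:**
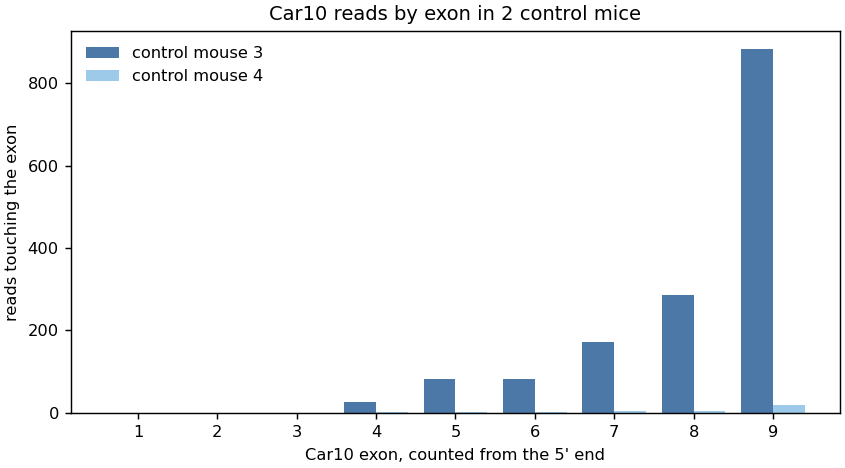
Reads touching each Car10 exon, counted from the 5′ end, in control mice 3 and 4. Bars are counts from 0, exons 1 to 3 have none, and in mouse 3 the count goes from 27 on exon 4 to 882 on exon 9.

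Carbonic anhydrases provide bicarbonate to transporters and to carboxylating enzymes, and neither list entered the choice of the genes. Both lists were, however, drawn up with earlier results of these data known. Of 17 bicarbonate and anion transporters of the Slc4 and Slc26 families, 10 were tested and none passed FDR 0.05 with edgeR. Over all tested genes 13.7% did, so a count of none among 10 says little about the transporters. An unadjusted p under 0.05 was found for 2 of them, Slc4a2 (edgeR FDR = 0.0511) and Slc26a6 (edgeR FDR = 0.067), which DESeq2 called and limma-voom did not. The median log2 fold change of the 10 was -0.02. Slc4a4, the sodium bicarbonate cotransporter of the hepatocyte membrane, had 96.3 ± 29.5 CPM on the control diet and 95.6 ± 12.0 CPM on the BIBB-515 diet (log2 fold change -0.01, SE 0.18, edgeR FDR = 0.977).

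Of 9 bicarbonate-using enzymes, all tested, 1 rose past the threshold and none fell, against 7.18% and 6.48% of all tested genes, and the median log2 fold change was -0.02. The gene that passed was Mccc1, the biotin-carrying subunit of the leucine-pathway enzyme methylcrotonyl-CoA carboxylase. It had 54.1 ± 5.63 CPM on the control diet and 62.9 ± 2.20 CPM on the BIBB-515 diet, a log2 fold change of 0.22 (SE 0.07, edgeR FDR = 0.0493), and it lost the call in 10 of the 12 fits that left out 1 mouse. An unadjusted p under 0.05 was found for 4 of the 9. The other 3 of these were its partner subunit Mccc2 (log2 fold change 0.17, SE 0.06, edgeR FDR = 0.081) and the acetyl-CoA carboxylases Acacb (log2 fold change -0.55, SE 0.24, edgeR FDR = 0.141) and Acaca (edgeR FDR = 0.127). Acaca had 392 ± 360 CPM on the control diet and 196 ± 54.3 CPM on the BIBB-515 diet (SD, n = 6 each). Pcx, pyruvate carboxylase, had 751 ± 107 and 678 ± 50.6 CPM (log2 fold change -0.15, SE 0.10, edgeR FDR = 0.336). Cps1, the urea cycle carbamoyl phosphate synthetase, had 4865 ± 1433 and 4582 ± 367 CPM (log2 fold change -0.09, SE 0.16, edgeR FDR = 0.769). Thus Pcx and Cps1, named above as enzymes that Car5a supplies, did not pass the threshold.

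To see which genes varied with Car3 from mouse to mouse apart from the diet, log2 CPM was correlated with Car3 within each diet, and genes were ranked by the lower of both Pearson correlations over 12480 genes. Since each rests on 6 mice that share their library with Car3, these are descriptions. The 5 highest were Tmbim6 (0.933 within control and 0.954 within treated mice), Ces1g (0.953 and 0.927), Ephx1 (0.916 and 0.879), Glipr2 (0.900 and 0.871) and Akr1a1 (0.867 and 0.866). Glipr2 was scarce, at 1.31 ± 0.344 CPM on the control diet and 1.59 ± 0.335 CPM on the BIBB-515 diet (SD, n = 6 each). Counting error therefore adds to its spread. Tmbim6 encodes an endoplasmic reticulum cell death inhibitor, Ces1g a carboxylesterase, Ephx1 microsomal epoxide hydrolase, and Akr1a1 an aldehyde reductase. Their own diet differences were a log2 fold change of 1.61 (SE 0.18) for Ephx1, 1.29 (SE 0.09) for Ces1g, 0.33 (SE 0.07) for Akr1a1, 0.28 (SE 0.20) for Glipr2 and 0.20 (SE 0.08) for Tmbim6. Among the members, Car1 came closest, with 0.867 within control and 0.491 within treated mice (rank 403). Car2 ran opposite to Car3 in control mice (-0.807) and weakly so in treated mice (-0.330), although it is the nearest neighbour on the chromosome. Car14 had -0.275 and -0.693, Car5a -0.088 and 0.238, and Car8 -0.311 and 0.736.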

How the data were processed

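RNA from flash-frozen liver was sequenced for 12 mice, 6 per diet. Per the labels and the file headers, the authors aligned reads with STAR 2.5.3a to mm10 and deposited read counts per gene and per exon made with featureCounts (Subread 1.6.3) and the UCSC mm10 gene annotation, with no strand option. The gene counts used here leave out multi-mapping reads and reads over 2 genes, the deposited primary-alignment counts keep the latter, and in the exon counts a spliced read counts for each exon it touches. Transcript-level tables were not used. The members and gene lists were chosen with earlier results of these data known.

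Genes with at least 1 CPM in 2 mice were kept. edgeR 4.0.16 (TMM, quasi-likelihood test, Benjamini-Hochberg adjustment over all tested genes, FDR 0.05) compared the diets. DESeq2 1.42.0 and limma 3.58.1 (voom, diffSplice) in R 4.3.3, other normalizations and filters, the primary counts and fits without each mouse were alternatives. Exons with at least 10 reads in 2 mice were tested with diffSpliceDGE. The count tests were tested on simulated data. Named genes were the members, other carbonic anhydrases past the filter, list genes past FDR 0.05, Pcx, Cps1, Slc4a4, Itpr1 and the 5 genes most like Car3. Other genes named were chosen after their values were seen. Coordinates are from the tables, and reference sequence and lengths from GENCODE M21 (GRCm38, the same build). The coding sequence of Car8 is not reported here. No mouse pair of a diet agreed within sampling noise (lowest chi-square per degree of freedom 12.7 over 30 pairs). With 22764819 to 31058370 reads per mouse, the spread between mice, not counting, limits the members other than Car1 and Car2. Counting error adds to the spread of Car2 (247 to 455 reads per mouse) and of Car1 (19 to 131 reads). The coefficient of variation of Car1 was 42.1% on the control diet and 10.7% on the BIBB-515 diet.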

Additional observations from a re-analysis of the deposited data

Results flagged for a closer look

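A gap test for a single deviating mouse was applied in each diet to the 16 carbonic anhydrases, to Pcx, Cps1, Slc4a4 and Itpr1, to the 5 genes most like Car3 and to the total count, leaving out sets in which no mouse had a read. It marked 3 of 49 sets. Chance marks about 1 in 20 sets, a share that does not apply to sets made of zeros and a single read. For Car10 in the control diet group, the gap between mouse 3 (52.5 CPM) and the next mouse (0.965 CPM) was 0.982 of the whole range. This was above Dixon's critical value for 6 mice. For Car10 in the BIBB-515 diet group, mouse 9, with a single read (0.0405 CPM), made up the whole range (1.0), since the other 5 mice had none. For Car6 on the control diet the same held for mouse 1 (0.0774 CPM, gap 1.0 of the range). None of the 6 described carbonic anhydrases had such a mouse in either diet.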

How the results depend on the processing

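The log2 fold changes of the 6 carbonic anhydrases moved by less than the spread between mice and kept their sign in all 19 other fits. Leaving out 1 of 6 mice can hardly move a group mean by that spread, so the 12 such fits could not test it. Leaving out single mice gave 1.49 to 1.75 for Car1, 0.13 to 0.22 for Car2, 1.07 to 1.26 for Car3, 0.27 to 0.41 for Car5a, -0.15 to -0.08 for Car8 and -0.80 to -0.67 for Car14. These differences chose the genes, so their steadiness is a description too. The count of the 6 past the threshold was 4, and 3 (without Car5a) when BIBB-515 mouse 6, 7, 8 or 9 was left out. The count over all genes was 1489 to 2244 in other fits and 1199 to 1865 without single mice. With no filter on low counts, 1 other carbonic anhydrase was called, Car10 (lower), and 0 bicarbonate-using enzymes. Car10 had 1200 reads in control mouse 3 and at most 24 in any other mouse, and only control mouse 3 reached 1 CPM. DESeq2 called 2 transporters (Slc4a2 and Slc26a6) and 2 bicarbonate-using enzymes (Mccc1 and Mccc2). RLE and upper-quartile normalization and the primary-alignment counts each called 1 transporter, Slc4a2. Without single mice the transporters ranged from 0 to 1 (1 without control mouse 3 or BIBB-515 mouse 11) and the enzymes from 0 to 1. Of these 12 fits, Mccc1 was past the threshold only in those without control mouse 2 or 3, and Mccc2 was the 1 enzyme called without control mouse 5. With GENCODE exon-union or longest-transcript lengths, 2 members changed places in the control order (Car8 and Car14). In the BIBB-515 order 2 did with exon-union lengths (Car2 and Car14) and 2 with the primary-alignment counts (Car14 and Car8). With Spearman correlation 0 of the 5 genes most like Car3 were among the first 5, where ranks over 6 mice tie often. The cause of the changed calls was not tested. No paired analysis was possible because the groups share only replicate number 6. Depth limits Car1, at 19 to 131 reads per mouse, and the carbonic anhydrases under 1 CPM.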
